A study of Homo sapiens with 77 samples.

Results

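The genes of mitosis and the G2/M transition were followed through 5 cell lines of diffuse large B cell lymphoma (DLBCL), first as levels in vehicle-treated cells and then as changes with drugs that block menin or EZH2. The set was a list of 50 named genes with roles in mitosis or the G2/M transition. All 50 were listed in both count tables, among 35813 genes in the table of the MI-503 experiment and 21455 genes in the table of the combination experiment. The filter on low counts kept 47 members in KARPAS422 and 48 in SuDHL10 of the combination experiment, and all 50 in each line of the MI-503 experiment. The 50 genes lie on 19 chromosomes of the hg38 build.

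Dividing cells accumulate these transcripts as they pass through G2 and discard many of the proteins at the end of mitosis. Cyclins A and B with CDK1 drive entry, condensins compact the chromosomes, kinetochore proteins attach them to the spindle, and kinesins and other microtubule proteins shape that spindle. The spindle checkpoint holds back the anaphase-promoting complex until the attachments are made, after which securin is destroyed, separase cuts cohesin and the cleavage furrow forms. Transcription of such genes is held down in resting cells by the DREAM complex and is raised in G2 by B-MYB with MuvB and by FOXM1. Promoter features known from this regulation are the cell cycle genes homology region, or CHR, and CCAAT boxes bound by NF-Y.

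The study compared inhibitors of the menin and MLL interaction, alone or with an inhibitor of the histone methyltransferase EZH2, by ribosomal RNA-depleted RNA sequencing. In the MI-503 experiment KARPAS422, DB, SUDHL5 and Farage cells received 800 nM MI-503, a menin-MLL inhibitor, or DMSO for 3 days. In the combination experiment KARPAS422 cells were treated for 48 hours and SuDHL10 cells for 24 hours with 1 µM EPZ-6438, an EZH2 inhibitor, with 330 nM VTP50469, a menin inhibitor, with both drugs, or with DMSO. Per the study's descriptions KARPAS422, DB and SuDHL10 carry mutant EZH2, while SUDHL5 and Farage are wild type for it. Each of the 16 groups had 2 libraries, 32 in all. The lines are established cultures with no unedited or engineered partner, so EZH2 status and every other difference between lines cannot be told apart. The labels do not say whether the 2 libraries of a group came from separate cultures, so the p-values measure only the spread between these samples. In such bulk RNA a lower level from fewer cells in G2 and mitosis and a lower level from less RNA per cell cannot be told apart.

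Library totals ran between 13034958 and 54883332 counts in the MI-503 table and between 8956156 and 31573027 in the combination table. B cell markers summed to 2713 to 5716 CPM (counts scaled to a common library size) in every library. Fibroblast markers summed to 604 to 1140 CPM and T cell markers to 156 to 294 CPM in all KARPAS422 libraries, treated or not. Nearly all of the fibroblast sum was DCN (603 to 1139 CPM), with COL1A1 at 2.594 CPM or less and COL1A2 at 1.214 CPM or less. Nearly all of the T cell sum was CD3G and CD3D, with CD2 at 1.324 CPM or less and CD3E at 2.863 CPM or less. In DB the epithelial marker sum was 5.74 and 5.20 CPM with MI-503 against 0.137 and 0.0651 CPM with DMSO, and in Farage it was 62.3 and 7.46 CPM with MI-503 against 1.14 and 1.57 CPM with DMSO. Erythroid markers reached 25.8 CPM in replicate 1 of Farage with MI-503, against 0.143 CPM or less in the other 3 Farage libraries. In KARPAS422 with both drugs, replicate 2 stood apart from replicate 1, with 18199 against 15880 genes having a count and an epithelial sum of 3.70 against 0.303 CPM. The part of these features in the results below was not tested.

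Promoter sequences were taken from RefSeq (build GRCh38.p14), where 44 of the 50 members had an entry running from 250 bases before to 50 bases after the gene start. The CHR letters TTTGAA or TTTAAA were searched on both strands, and CCAAT likewise on both strands. The first search found a match between 100 bases before and 50 bases after the start in 37 of the 44 member promoters (84.1%), against 3094 of all 27305 promoters of that length (11.3%). Among genes of the G1/S transition and DNA replication the same letters were present in 3 of 36 promoters (8.33%), and among mitotic kinases in 3 of 8 (37.5%). CCAAT was present in that window in 27 of the 44 member promoters (61.4%), against 22% of all promoters. It was present in 17 of 36 G1/S promoters (47.2%) and 3 of 8 mitotic kinase promoters (37.5%). A match is a string of letters and not a measured binding site. The 120 bases before the gene start are shown for 5 members that differ in their response below, and for CDCA5, which has no match in these bases. Only the letters given above were searched, so the lack of a match does not show that CDCA5 has no CHR. Capitals mark the CHR letters and CCAAT, or its reverse complement ATTGG.
CCNB2, chr15:59105026-59105145, plus strand: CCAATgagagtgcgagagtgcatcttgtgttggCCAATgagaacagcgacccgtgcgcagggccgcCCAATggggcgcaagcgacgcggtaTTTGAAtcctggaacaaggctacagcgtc
CDC20, chr1:43358861-43358980, plus strand: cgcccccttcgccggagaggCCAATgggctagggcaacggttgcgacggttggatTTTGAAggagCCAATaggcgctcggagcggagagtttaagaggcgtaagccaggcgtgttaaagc
HMMR, chr5:163460512-163460631, plus strand: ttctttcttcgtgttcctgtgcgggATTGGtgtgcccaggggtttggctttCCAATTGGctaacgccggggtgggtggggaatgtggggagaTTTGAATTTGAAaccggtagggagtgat
MKI67, chr10:128126424-128126543, minus strand: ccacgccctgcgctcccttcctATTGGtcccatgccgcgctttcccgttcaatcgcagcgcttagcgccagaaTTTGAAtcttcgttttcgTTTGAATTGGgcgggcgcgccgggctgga
NCAPG, chr4:17810859-17810978, plus strand: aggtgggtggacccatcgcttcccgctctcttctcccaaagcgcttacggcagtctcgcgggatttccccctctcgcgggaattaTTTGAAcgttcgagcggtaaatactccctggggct
CDCA5, chr11:65084041-65084160, minus strand: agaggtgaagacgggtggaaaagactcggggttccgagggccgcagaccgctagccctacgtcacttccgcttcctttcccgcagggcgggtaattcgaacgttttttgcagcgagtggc

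In DMSO-treated cells of the MI-503 table the members were highest in SUDHL5 and lowest in DB or KARPAS422. SUDHL5 had the highest mean for 39 of 50 members, KARPAS422 and Farage for 4 each and DB for 3. DB had the lowest mean for 23 members, KARPAS422 for 18 and Farage for 9. The ratio of the highest line to the lowest was 2.24 at the median and lay between 1.14 and 4.04. These counts and ratios were taken over the members alone, with no share of all genes to set beside them. Levels are given as CPM after TMM scaling, which corrects library totals for differences in composition, and they are compared between lines within a gene, not between genes.

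Against Farage, 37 of 50 members were higher and 3 were lower in SUDHL5 at an adjusted p under 0.1 in edgeR's quasi-likelihood test with Benjamini-Hochberg adjustment, when 39.7% of all genes were called higher and 38.6% lower. The member median was 0.55 on the log2 scale, against 0.01 over all genes tested. CDCA3, which helps to promote mitotic entry, was at 170 and 153 CPM in SUDHL5 and at 44.9 and 42.5 CPM in Farage, a log2 difference of 1.84 ± 0.058 (SE; adjusted p = 1.04e-12). NCAPD2, a condensin subunit, was at 867 and 813 CPM in SUDHL5 against 336 and 338 CPM in Farage. FOXM1, the transcription factor of the G2 programme, was at 273 and 253 CPM in SUDHL5 against 103 and 106 CPM in Farage, 1.28 ± 0.041 higher (adjusted p = 1.32e-12). The 3 members that were lower in SUDHL5 were CDCA2 (-0.50), PTTG1 (-0.23) and MKI67 (-0.09), and the libraries of MKI67 overlapped between the 2 lines.

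KARPAS422 had 11 members higher and 30 lower than Farage, when 41.8% of all genes were called higher and 38.6% lower. The larger differences ran in both directions. HMMR, a spindle assembly protein, was at 213 and 197 CPM in KARPAS422 against 87.6 and 90.3 CPM in Farage (1.14 ± 0.054). NDC80 and NUF2, partners in the kinetochore complex that grips microtubules, were also higher, by 1.14 and 0.98. MKI67, the Ki-67 antigen that coats mitotic chromosomes, was at 450 and 460 CPM in KARPAS422 against 1023 and 1053 CPM in Farage (-1.25 ± 0.036), and the kinesin KIF20B was lower by the same amount (-1.25). This split depends on the scaling: with library totals alone 20 members were higher and 19 lower, while the median of all genes itself stood at 0.23, so relative to that median the members still lay lower (member median -0.01).

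DB had 10 members higher and 34 lower than Farage, when 40.6% of all genes were called higher and 41.5% lower. SMC2, the ATPase core subunit of condensin, was at 70.6 and 73.1 CPM in DB against 185 and 194 CPM in Farage (-1.49 ± 0.049). MKI67 was lower by the same amount (-1.49 ± 0.038) and securin, PTTG1, by -1.36. Survivin, BIRC5, a subunit of the chromosomal passenger complex, went the other way, at 135 and 143 CPM in DB against 74.4 and 78.5 CPM in Farage (0.77 ± 0.047).

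In the combination table DMSO-treated KARPAS422 had 2 members higher and 28 lower than SuDHL10, when 31.8% of all genes were called higher and 30.6% lower. NUF2 was higher, at 213 and 163 CPM in KARPAS422 against 84.6 and 101 CPM in SuDHL10 (0.99 ± 0.17), and CDC20, the activator of the anaphase-promoting complex, was the other (0.46 ± 0.15). CCNB2 was lower, at 82.9 and 84.6 CPM in KARPAS422 against 186 and 195 CPM in SuDHL10 (-1.22 ± 0.14), as were NCAPD2 (-1.16) and MKI67 (-1.09). SPC25 is among the 28, but it was listed at 0 in both KARPAS422 libraries and at 0.676 and 0.943 CPM in SuDHL10, so no fold is given.

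**Figure D1:**
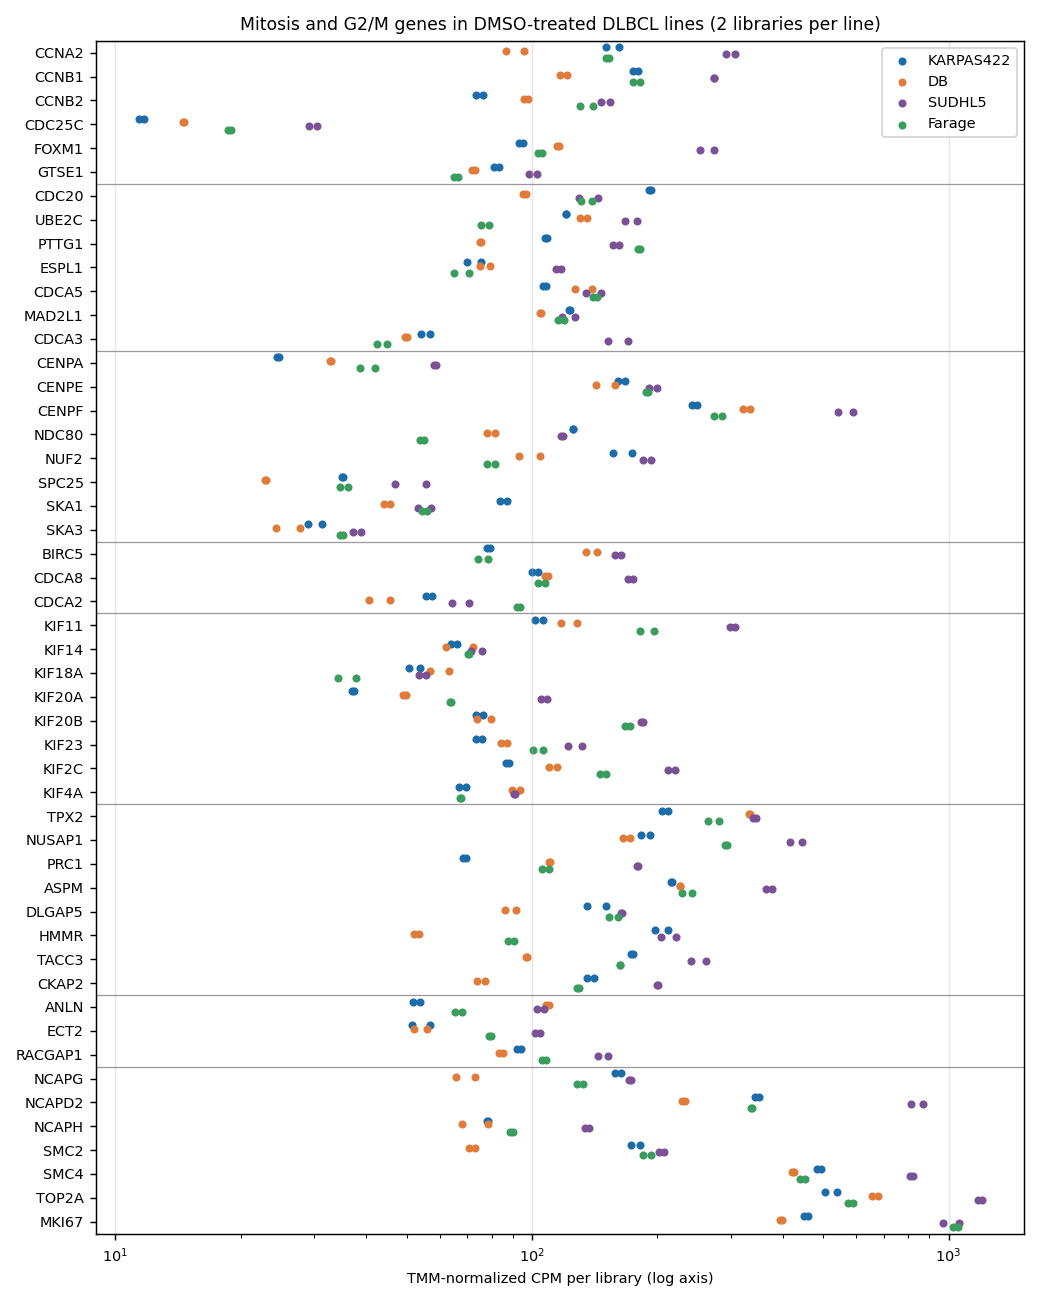
TMM-scaled CPM (log axis) of the 50 members in the 2 DMSO libraries of each line in the MI-503 experiment, each point being 1 library and lines dividing the 8 role groups. SUDHL5 points lie at the right for most genes, and for MKI67 the DB and KARPAS422 libraries lie at 460 CPM or below.

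MI-503 for 3 days lowered most of the members in DB, split them in KARPAS422 and SUDHL5 and left most uncalled in Farage. Of all genes 25.5% were called higher and 26.3% lower in KARPAS422, 26.3% and 28.7% in SUDHL5, and 12.3% and 14.7% in Farage. Going both ways, or staying uncalled in Farage, was therefore not particular to the members. Every member was called in at least 1 line, but in DB alone 34.5% of all genes were called higher and 34.7% lower. No member was called higher in all 4 lines. Counts over several lines were made for the members alone, with no share of all genes beside them. CDCA2, NCAPG and SMC2 were called lower in all 4, where the Farage calls are lost without either Farage control, with library totals alone and in a single fit of the 16 libraries (0 members lower in Farage in each). The sum of the 50 members was 4640 and 4665 CPM with MI-503 against 6156 and 6343 CPM with DMSO in DB, and 6463 and 6315 CPM against 6906 and 6742 CPM in KARPAS422. The sums were 11131 and 11914 CPM with MI-503 against 12032 and 11631 CPM with DMSO in SUDHL5, and 7925 and 8605 CPM against 7746 and 7893 CPM in Farage, so that the treated and control sums overlapped in SUDHL5 and not in the other lines.

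In KARPAS422, 9 of 50 members were higher and 28 lower with MI-503, when 25.5% of all genes were called higher and 26.3% lower. The member median was -0.11, against 0.01 over all genes, and no called member changed by more than 1.5-fold. Of the condensin and chromosome structure group 6 of 7 were lower, as were all 3 genes of the chromosomal passenger and chromatin phosphatase group. NCAPG, which helps condensin hold DNA, was at 118 and 119 CPM with MI-503 against 163 and 158 CPM with DMSO (-0.44 ± 0.034, adjusted p = 2.44e-06). SMC4, SMC2, NCAPH and NCAPD2 fell with it, while TOP2A, the topoisomerase that untangles sister DNA, was at 530 and 522 CPM with MI-503 and 540 and 505 CPM with DMSO (0.01 ± 0.033).

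Of the cyclins and mitotic entry genes 4 of 6 were lower and 1 was higher in KARPAS422. GTSE1, a microtubule-binding protein that restrains p53, was at 59.2 and 57.6 CPM with MI-503 against 80.9 and 83.2 CPM with DMSO (-0.49 ± 0.039). FOXM1 fell by 0.35, cyclin A2 (CCNA2) by 0.17 and cyclin B1 (CCNB1) by 0.13, and the libraries of these genes did not overlap between treatments. Cyclin B2 (CCNB2) was slightly higher, at 81.1 and 78.3 CPM with MI-503 against 76.3 and 73.6 CPM with DMSO (0.09 ± 0.039, adjusted p = 0.087). The largest fall among the members was that of SKA3, of the Ska complex that couples kinetochores to microtubules, at 20.9 and 21.6 CPM with MI-503 against 29.1 and 31.4 CPM with DMSO (-0.52 ± 0.062).

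The 9 genes that were higher in KARPAS422 came from several role groups, and within a group others fell. The count of 9 was 6 with DESeq2, 7 in a single fit of the 16 libraries and 12 with library totals alone. CDC20 was at 248 and 244 CPM with MI-503 against 191 and 194 CPM with DMSO (0.35 ± 0.029, adjusted p = 4.37e-06). PTTG1, the securin that CDC20 marks for destruction, was at 136 and 129 CPM against 109 and 108 CPM (0.29 ± 0.034), and UBE2C, the ubiquitin-conjugating enzyme of the same complex, was at 146 and 141 CPM against 121 and 121 CPM (0.25 ± 0.032). The other 6 were CCNB2, the centromeric histone CENPA (0.14), the central spindle kinesin KIF23 (0.12), the spindle proteins NUSAP1 (0.21) and DLGAP5 (0.25), and anillin, ANLN (0.23), which scaffolds the cleavage furrow. In the same group as CDC20, sororin (CDCA5, which protects cohesin) fell to 86.0 and 82.2 CPM with MI-503, against 106 and 108 CPM with DMSO (-0.35), and the checkpoint protein MAD2L1 fell by 0.21. Of the cytokinesis genes ANLN rose, while ECT2, an exchange factor for RhoA, fell by 0.20 and RACGAP1, its partner at the central spindle, by 0.11.

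**Figure D2:**
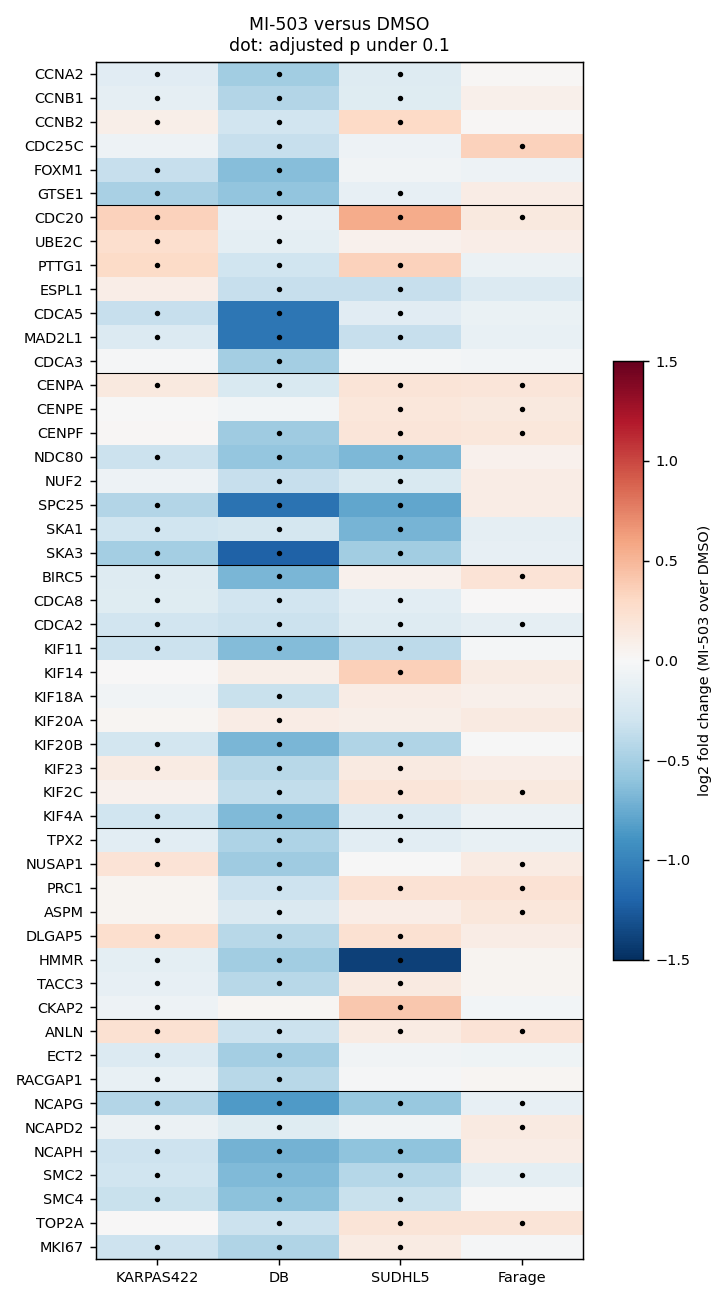
Log2 fold change of MI-503 over DMSO for the 50 members (rows, in role groups divided by lines) in 4 lines (columns), with blue for lower, red for higher and a dot where the adjusted p was under 0.1. The DB column is blue and dotted for 46 members, while the KARPAS422 and SUDHL5 columns hold both colours.

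In DB, 46 of 50 members were lower and 1 was higher, when 34.7% of all genes were called lower and 34.5% higher. The median was -0.42, against 0.02 over all genes, and 14 members were lower by more than 1.5-fold. All 6 entry genes, all 7 of the anaphase, cohesion and checkpoint group and all 7 condensin and chromosome structure genes were lower. MAD2L1 was at 48.9 and 50.1 CPM with MI-503 against 104 and 105 CPM with DMSO (-1.08 ± 0.038, adjusted p = 3.13e-10), and CDCA5 was at 61.7 and 64.0 CPM against 127 and 140 CPM (-1.08 ± 0.045). SKA3 fell further, to 10.7 and 11.6 CPM with MI-503 against 27.7 and 24.3 CPM with DMSO (-1.22 ± 0.085). These are the proteins of the checkpoint, of cohesion and of the kinetochore.

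NCAPG changed by -0.85 ± 0.06 in DB, and NCAPH, another condensin subunit, was at 44.7 and 44.8 CPM with MI-503 against 67.8 and 78.4 CPM with DMSO (-0.71 ± 0.059). CCNB1 was at 86.9 and 88.0 CPM against 121 and 117 CPM (-0.44 ± 0.036), TOP2A at 533 and 527 CPM against 654 and 679 CPM (-0.33 ± 0.027) and MKI67 at 284 and 292 CPM against 393 and 398 CPM (-0.45 ± 0.028). None of these treated libraries overlapped its controls. CDC20 was among the smaller changes (-0.12 ± 0.039, adjusted p = 0.014). KIF20A, a kinesin of the central spindle, was the 1 member called higher, at 54.4 and 52.6 CPM with MI-503 against 49.1 and 49.9 CPM with DMSO (0.12 ± 0.048, adjusted p = 0.0517). That call was lost without DMSO replicate 1, without MI-503 replicate 1, with DESeq2 and in a single fit of the 16 libraries (0 higher in each), and 3 members were higher with library totals alone. Library depth went with treatment in DB, at 52236459 and 46170498 counts with MI-503 against 14695930 and 15474692 counts with DMSO, and with every library thinned to the smallest total 46 members were again lower.

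In SUDHL5, 16 of 50 members were higher and 22 lower, when 26.3% of all genes were called higher and 28.7% lower. The median was -0.05, against -0.0037 over all genes, and single members moved further than in KARPAS422, with 5 lower by more than 1.5-fold. HMMR had the largest change of any member with MI-503, at 78.5 and 81.3 CPM with MI-503 against 204 and 222 CPM with DMSO (-1.40 ± 0.061, adjusted p = 6.67e-07). Kinetochore genes split, with 5 lower and 3 higher. SPC25, SKA1, NDC80, SKA3 and NUF2 were lower (NDC80 at 67.1 and 77.6 CPM against 117 and 119 CPM, -0.68 ± 0.054), whereas CENPA, the kinesin CENPE and CENPF were higher by 0.17 to 0.20.

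CDC20 rose again in SUDHL5, to 192 and 209 CPM with MI-503 against 144 and 130 CPM with DMSO (0.56 ± 0.045, adjusted p = 1.25e-05). CCNB2 was at 176 and 189 CPM against 154 and 146 CPM (0.30 ± 0.039), PTTG1 rose by 0.35, the microtubule protein CKAP2 by 0.40 and the midbody kinesin KIF14 by 0.36. Of the condensin and chromosome structure genes 4 of 7 were lower, with NCAPG at 109 and 119 CPM with MI-503 against 171 and 173 CPM with DMSO (-0.57 ± 0.045). TOP2A (0.19) and MKI67 (0.13) were higher, although the MKI67 libraries overlapped between treatments.

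In Farage, 13 of 50 members were higher and 3 lower, when 12.3% of all genes were called higher and 14.7% lower. The median was 0.05, against 0.01 over all genes, and no called member changed by 1.5-fold. CDC25C, the phosphatase that activates CDK1, was at 24.2 and 24.9 CPM with MI-503 against 19.0 and 18.6 CPM with DMSO (0.35 ± 0.075, adjusted p = 0.0103). TOP2A was at 653 and 709 CPM against 574 and 588 CPM (0.19 ± 0.039), and the spindle bundling protein PRC1 (0.22), BIRC5 (0.21) and ANLN (0.20) were also higher. SMC2 (-0.15), CDCA2 (-0.14) and NCAPG (-0.13) were the 3 lower members. The count of 3 was 0 without either DMSO library, 8 without MI-503 replicate 2 and 7 in the fit with a replicate block. The count of 13 rests on both controls, since 1 member was higher without DMSO replicate 1 and 2 without DMSO replicate 2. Without MI-503 replicate 1, the library with the high epithelial and erythroid sums, 16 were higher. With library totals alone 22 were higher and 0 lower.

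Called higher in both KARPAS422 and SUDHL5 were CCNB2, CDC20, PTTG1, CENPA, KIF23, DLGAP5 and ANLN. All of them were called lower in DB, as were 46 of all 50 members, so their direction in DB does not set them apart from the other members. The overlap between KARPAS422 and SUDHL5 was counted over the members alone, without a share of all genes.

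**Figure D3:**
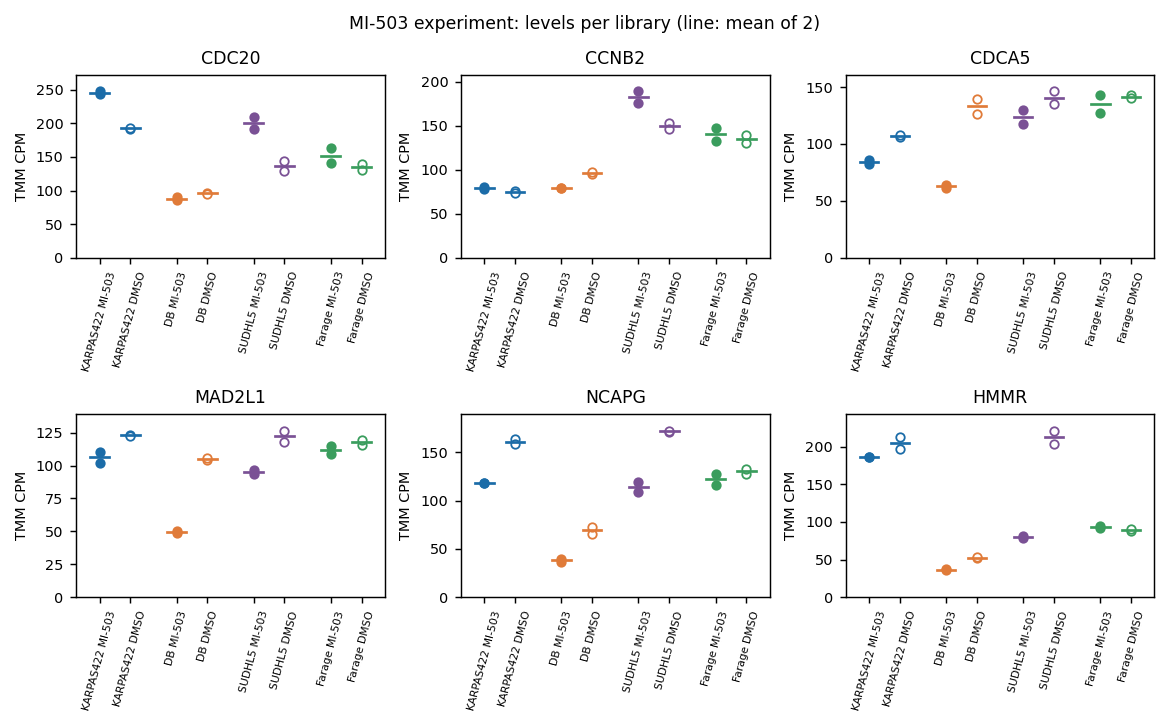
TMM-scaled CPM per library for 6 members in 4 lines, with filled points for MI-503, open points for DMSO and a bar at the mean of the 2 libraries. CDC20 lies above its control in KARPAS422 and SUDHL5 and below it in DB, and HMMR in SUDHL5 shows the largest gap between treatments.

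The differences between lines were tested directly as the difference of the 2 MI-503 responses. In KARPAS422 minus DB, 41 members were higher and 0 lower, when 27.2% of all genes were called higher and 19.7% lower. At an unadjusted p under 0.05 the count lower was also 0, and DESeq2 gave 0. The responses of MAD2L1 differed by 0.89 ± 0.058 and those of NUSAP1 by 0.76 ± 0.05. CDC20, whose response was 0.35 in KARPAS422 and -0.12 in DB, differed by 0.49 ± 0.049 (adjusted p = 1.47e-06).

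In KARPAS422 minus Farage, 31 members were lower and 1 was higher, when 14.7% of all genes were called lower and 9.52% higher. GTSE1 differed most (-0.63 ± 0.063, adjusted p = 4.85e-05), and PTTG1 was the 1 member higher (0.35 ± 0.076). CDC20 was not called (0.18 ± 0.076, adjusted p = 0.134), nor was TPX2, the activator of Aurora A (-0.09 ± 0.066). The count lower fell to 12 and 13 without replicate 1 or replicate 2 of the Farage controls, to 15 and 19 without replicate 1 or 2 of the KARPAS422 controls, and to 17 and 15 without replicate 1 or 2 of KARPAS422 with MI-503.

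In Farage minus SUDHL5, 21 members were higher and 5 lower, when 22.5% of all genes were called higher and 15.9% lower. HMMR differed by 1.46 ± 0.083 (adjusted p = 7.81e-07) and SPC25 by 0.91 ± 0.18. The 5 lower were CKAP2 (-0.42), PTTG1 (-0.41), CDC20 (-0.39), CCNB2 (-0.25) and KIF14 (-0.20), genes that had risen in SUDHL5.

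In the combination experiment the members fell in KARPAS422 when both drugs were given. Their sum was 7227 and 7458 CPM with EPZ-6438, 6038 and 6090 CPM with VTP50469 and 5328 and 4011 CPM with both drugs, against 7572 and 7023 CPM with DMSO. Only the EPZ-6438 sums overlapped the controls. 4 members could hardly be read in this table: SMC4 was at 0 in all 16 libraries, SKA1 and SPC25 were at or near 0, and PRC1 lay between 1.05 and 4.07 CPM. In the MI-503 table DMSO-treated KARPAS422 had means of 489.9 CPM for SMC4, 85.6 CPM for SKA1 and 68.7 CPM for PRC1. The same was seen beyond the members, as 577 of 7358 genes at 20 CPM or more in those libraries were under 0.5 CPM in the KARPAS422 controls of the combination table. The tables were never tested against each other. Calls in the combination experiment below come from fits that did not pair same-numbered libraries, except where pairing is named. In KARPAS422 a paired count is given only for VTP50469 against DMSO.

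EPZ-6438 alone lowered 3 of 47 tested members in KARPAS422 and raised 0, when 10% of all genes were called lower and 8.27% higher. At an unadjusted p under 0.05 the count higher was 0, and DESeq2 gave 0. CDCA5 was at 115 and 118 CPM with EPZ-6438 against 159 and 178 CPM with DMSO (-0.54 ± 0.11, adjusted p = 0.0296). The spindle protein TACC3 (-0.46 ± 0.1) and the microtubule depolymerase KIF2C (-0.32 ± 0.092) were the others. None of the 3 was called without EPZ-6438 replicate 2 or without either VTP50469 library, which share the estimate of spread, while 5 members were lower without replicate 1 of both drugs and 7 without replicate 2.

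With VTP50469 alone 0 members were called in either direction in KARPAS422, when 0.197% of all genes were called lower and 3.18% higher. At an unadjusted p under 0.05, 3 members were lower and 0 higher, and DESeq2 called 1 lower and 0 higher. The member median was -0.22, against 0.0029 over all genes. TOP2A was at 398 and 411 CPM with VTP50469 against 569 and 456 CPM with DMSO (-0.28 ± 0.24, adjusted p = 0.753), and CCNB1 was at 219 and 210 CPM against 258 and 251 CPM (-0.17 ± 0.12, adjusted p = 0.646). In the fit that paired same-numbered libraries, 1 member was lower. Without replicate 1 of both drugs 3 were lower, and without replicate 2 of both drugs 4 were.

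Both drugs lowered 34 of 47 tested members against DMSO in KARPAS422 and raised 0, when 25.2% of all genes were called lower and 23.5% higher. At an unadjusted p under 0.05 the count higher was 0, and DESeq2 gave 0. The median was -0.64, against 0.10 over all genes, and 26 of the 34 were lower by more than 1.5-fold. All 7 of the anaphase, cohesion and checkpoint genes, 5 of 6 entry genes and 7 of 8 kinesins fell. With library totals alone the median of all genes stood at 0.33 and that of the members at -0.42, with 32 lower.

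CDCA5 was at 72.7 and 65.8 CPM with both drugs against 159 and 178 CPM with DMSO (-1.24 ± 0.11, adjusted p = 0.000551). MAD2L1 was at 70.0 and 50.4 CPM against 150 and 139 CPM (-1.23 ± 0.19) and CCNA2 at 94.8 and 69.6 CPM against 206 and 185 CPM (-1.21 ± 0.18). For these genes the treated libraries lay well below the controls. CCNB1 was at 146 and 131 CPM against 258 and 251 CPM (-0.84 ± 0.12), CDC20 at 187 and 190 CPM against 308 and 378 CPM (-0.83 ± 0.11) and NCAPH, a condensin subunit, at 58.3 and 56.3 CPM against 122 and 116 CPM (-1.02 ± 0.1). FOXM1 fell by 0.63 and BIRC5 by 0.76.

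Some members did not pass the test with both drugs. The 2 treated libraries lay apart for those given here, but also for called members such as MAD2L1 and CCNA2. TOP2A was at 456 and 289 CPM with both drugs against 569 and 456 CPM with DMSO (-0.42 ± 0.24, adjusted p = 0.207), and MKI67 was at 527 and 401 CPM against 548 and 531 CPM (-0.18 ± 0.15, adjusted p = 0.367). CENPF had the highest value of the set, at 358 and 238 CPM against 308 and 266 CPM (0.09 ± 0.22). Replicate 2 was the lower library in each. Without that library 28 members were lower, with a median of -0.52, while the count was 21 without VTP50469 replicate 1 and 22 without EPZ-6438 replicate 2.

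Against EPZ-6438 alone, both drugs lowered 30 of 47 members and raised 0, when 10.9% of all genes were called lower and 10% higher. MAD2L1 was at 70.0 and 50.4 CPM with both drugs against 125 and 127 CPM with EPZ-6438 (-1.01 ± 0.19, adjusted p = 0.0244). Against VTP50469 alone, both drugs lowered 22 of 47 and raised 0, when 21.9% of all genes were called lower and 16.2% higher. CDCA5 was at 72.7 and 65.8 CPM with both drugs against 138 and 141 CPM with VTP50469 (-1.04 ± 0.11, adjusted p = 0.00239). In both comparisons the count higher was 0 at an unadjusted p under 0.05 and 0 by DESeq2.

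These counts against the single drugs depend on single libraries. Against EPZ-6438 the count was 0 without EPZ-6438 replicate 2, 1 without its replicate 1, 0 without VTP50469 replicate 1 and 6 without VTP50469 replicate 2. Against VTP50469 it was 0 without VTP50469 replicate 1, 7 without EPZ-6438 replicate 2 and 47 without replicate 1 of both drugs. The median was -0.58 against EPZ-6438 and -0.49 against VTP50469, beside 0.08 and 0.06 over all genes.

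Some members higher with MI-503 in KARPAS422 were lower with both drugs in the same line, as most tested members were. The log2 changes were 0.35 with MI-503 and -0.83 with both drugs for CDC20, 0.29 and -0.78 for PTTG1, and 0.25 and -0.61 for UBE2C. The agents, doses and times differ between the 2 experiments, and the difference was not tested.

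**Figure D4:**
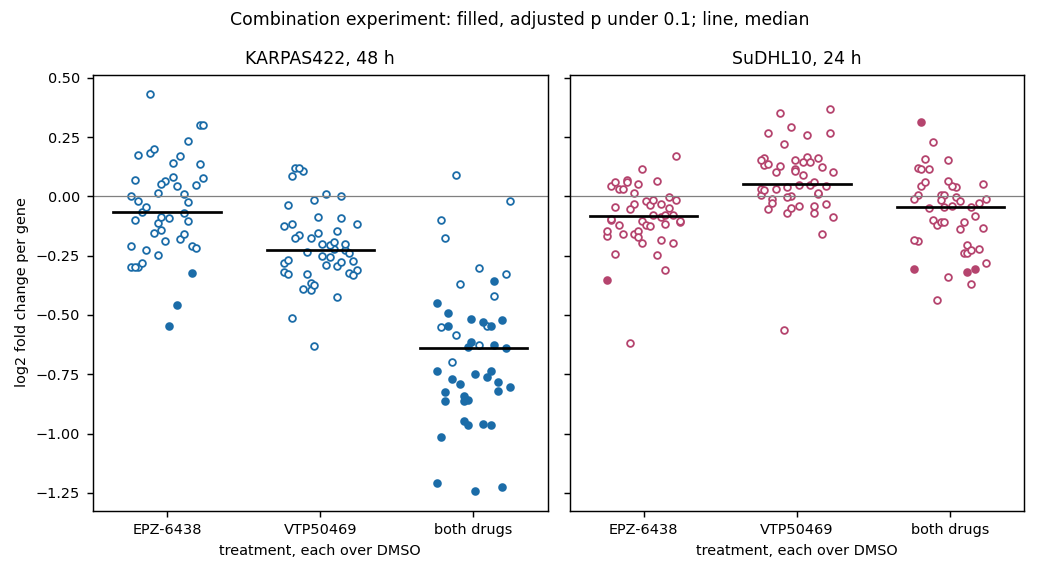
Log2 fold change over DMSO of each tested member with EPZ-6438, VTP50469 and both drugs in KARPAS422 (48 hours, 47 members) and SuDHL10 (24 hours, 48 members). Filled points had an adjusted p under 0.1 and bars mark medians, which are -0.64 for both drugs in KARPAS422 and -0.04 in SuDHL10.

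In SuDHL10 few members were called in the fit without pairing, and more in the paired fit given below. With EPZ-6438, 1 of 48 was lower and 0 higher, when 5.39% of all genes were called lower and 12.1% higher. With VTP50469, 0 were called in either direction, as were 0% of all genes higher and 0% lower. With both drugs, 3 were lower and 1 higher against DMSO, when 7.93% of all genes were called lower and 13.7% higher. At an unadjusted p under 0.05, 0 members were higher with EPZ-6438, and 1 was higher and 0 lower with VTP50469, while DESeq2 gave 0 for each of these.

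CCNA2 was at 213 and 245 CPM with EPZ-6438, 296 and 284 CPM with VTP50469 and 230 and 247 CPM with both drugs, against 280 and 300 CPM with DMSO. It was lower with EPZ-6438 (-0.35 ± 0.088, adjusted p = 0.0342) and with both drugs (-0.31 ± 0.088, adjusted p = 0.0491). PTTG1 was at 146 and 160 CPM with both drugs against 187 and 184 CPM with DMSO (-0.30 ± 0.086), and CDCA2, which brings a phosphatase to chromatin, at 69.5 and 75.3 CPM against 83.2 and 94.0 CPM (-0.32 ± 0.11). KIF20A was the 1 member higher, at 108 and 105 CPM with both drugs against 85.8 and 81.9 CPM with DMSO (0.31 ± 0.1, adjusted p = 0.0759). TOP2A was at 674 and 738 CPM with both drugs and 577 and 703 CPM with DMSO, and CDC20 at 253 and 257 CPM and 263 and 222 CPM, so that treated and control libraries overlapped.

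Against EPZ-6438, both drugs gave 0 members in either direction, when 1.77% of all genes were called higher and 2.7% lower. At an unadjusted p under 0.05, 4 were higher and 3 lower, and DESeq2 called 1 higher and 0 lower. Against VTP50469, both drugs lowered 1 member, CCNA2 (-0.31 ± 0.088, adjusted p = 0.0757), and raised 0, when 2.88% of all genes were called lower and 8.58% higher. For this last 0 the count at an unadjusted p under 0.05 was 0 and DESeq2 gave 0.

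The fit that paired same-numbered libraries called more members in SuDHL10, and more of all genes. Of 48 members it gave 10 lower with EPZ-6438 (20.1% of all genes lower), 5 higher with VTP50469 (2.16% of all genes), and 11 lower (24.5% of all genes) and 3 higher (22% of all genes) with both drugs, each against DMSO. The shares of members lower with EPZ-6438 and with both drugs were near those of all genes. With both drugs it gave 4 lower (16.1% of all genes) and 6 higher (17.1% of all genes) against EPZ-6438 alone, and 21 lower (25.4% of all genes) and 2 higher (25.1% of all genes) against VTP50469 alone. In that fit SMC2 fell by 0.32 with EPZ-6438, KIF18A by 0.37 with both drugs, and CENPE rose by 0.38 ± 0.085 with VTP50469. The unpaired counts moved with single libraries. The count lower with EPZ-6438 was 0 without DMSO replicate 2, 2 without EPZ-6438 replicate 1 and 6 without its replicate 2. With both drugs it was 0 without DMSO replicate 2 or either library of both drugs, 1 without either VTP50469 library, and 10 and 9 without replicate 1 or 2 of EPZ-6438. Against EPZ-6438 alone it was 7 without EPZ-6438 replicate 1, and against VTP50469 alone it was 17 without either EPZ-6438 library, 5 without either DMSO library and 0 without either library of VTP50469 or of both drugs. The 2 lines were treated for different times and their responses were not compared.

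**Figure D5:**
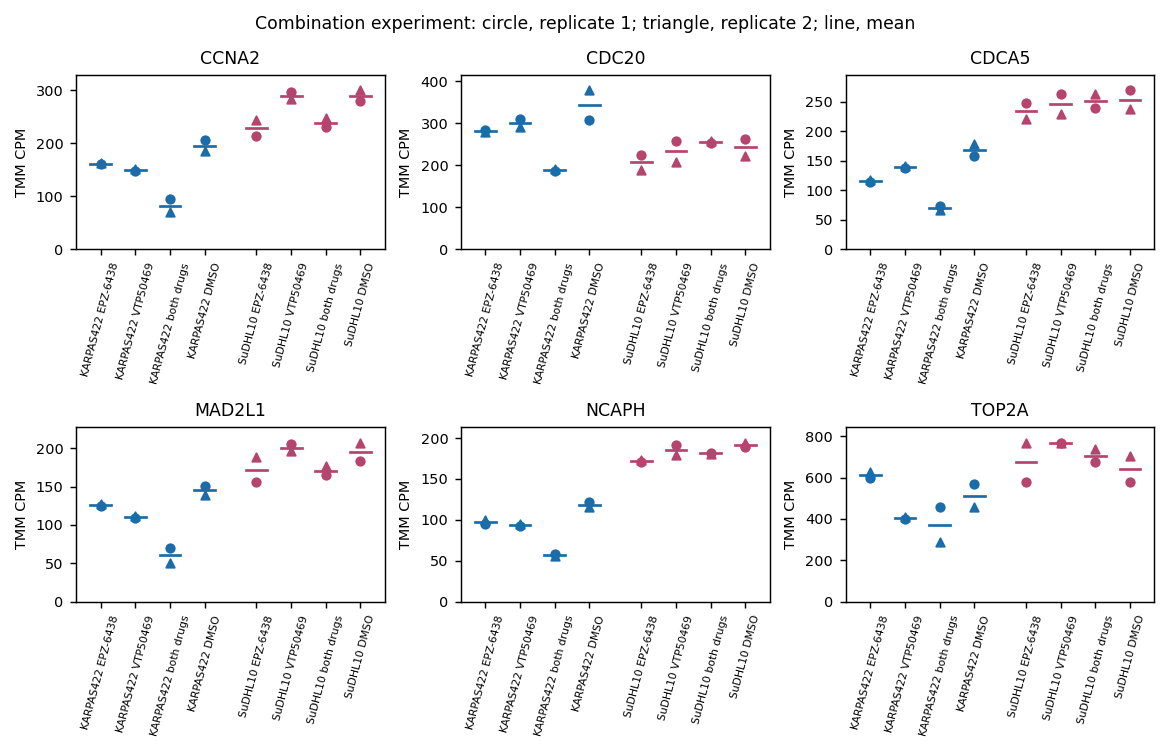
TMM-scaled CPM per library for 6 members in the combination experiment, with circles for replicate 1, triangles for replicate 2 and a bar at the mean. In KARPAS422 both drugs gave the lowest CCNA2, CDCA5, MAD2L1 and NCAPH levels, and the 2 TOP2A libraries lie apart at 456 and 289 CPM.

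Other cell cycle genes were described beside the members from 4 further lists. Of 41 genes of the G1/S transition and DNA replication, 39 were lower with MI-503 in KARPAS422 (median -0.55), 39 in DB (-1.12), 39 in SUDHL5 (-0.85) and 20 in Farage (-0.11), where 2 were higher. Of all genes 26.3%, 34.7%, 28.7% and 14.7% were called lower in the same order of lines, and 12.3% higher in Farage. The medians of the mitotic members were -0.11, -0.42, -0.05 and 0.05 in the same order of lines. Both drugs in KARPAS422 lowered 38 of 40 G1/S genes (median -1.04), beside 25.2% of all genes. EPZ-6438 alone lowered 17 of 40 there, beside 10% of all genes. In SuDHL10, 6 of 41 were lower with EPZ-6438, beside 5.39% of all genes, and 3 with both drugs, a share near the 7.93% of all genes.

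Mitotic kinases phosphorylate many of the member proteins. Of 13, 5 were higher and 5 lower with MI-503 in KARPAS422 (25.5% and 26.3% of all genes). In DB 1 was higher and 11 lower (34.5% and 34.7% of all genes), in SUDHL5 5 were higher and 4 lower (26.3% and 28.7%), and in Farage 2 were higher and 0 lower (12.3% and 14.7%). Both drugs lowered 10 and raised 0 in KARPAS422 (25.2% and 23.5% of all genes). In DB AURKB, the kinase of the chromosomal passenger complex, changed by -0.86 and CDK1 by -0.77. Among 19 DREAM, B-MYB-MuvB, E2F and RB regulators, MI-503 lowered 14 and raised 2 in KARPAS422, lowered 13 and raised 3 in DB, lowered 13 and raised 1 in SUDHL5, and lowered 8 and raised 3 in Farage, beside the same shares of all genes. Both drugs lowered 12 of 18 in KARPAS422 and raised 2. These were E2F7 (1.17), a repressor of E2F targets, and TFDP2 (1.30), a dimer partner of E2F proteins. EPZ-6438 alone also raised E2F7 (1.46) and TFDP2 (0.96) there. Against EPZ-6438 alone, both drugs raised TFDP2 by 0.34, and E2F7 was not called (-0.29). MYBL2, which encodes B-MYB, was lower in each line with MI-503, with log2 changes of -0.65 in KARPAS422, -0.99 in DB, -0.74 in SUDHL5 and -0.26 in Farage. In KARPAS422 its log2 change was -1.38 with both drugs and -0.68 with EPZ-6438 alone.

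CDK inhibitors were few, and single genes differed by line and drug. With MI-503, 2 of 6 were higher and 2 lower in KARPAS422 (25.5% and 26.3% of all genes). In DB 3 of 5 were higher and 1 lower (34.5% and 34.7%). In SUDHL5 2 of 6 were higher and 3 lower (26.3% and 28.7%), and in Farage 3 of 6 higher and 0 lower (12.3% and 14.7%). With EPZ-6438, 2 of 4 were higher in KARPAS422 (8.27% of all genes) and 1 of 4 in SuDHL10 (12.1%). With both drugs it was again 2 of 4 in KARPAS422 (23.5% of all genes) and 1 of 4 in SuDHL10 (13.7%). With EPZ-6438 and with both drugs 0 were lower. CDKN1A, which encodes p21, changed by -1.18 with MI-503 in KARPAS422, by 0.58 in SUDHL5 and by 0.19 in Farage, and it did not pass the filter on low counts in DB. In the combination experiment it changed by 1.20 with EPZ-6438 and 1.62 with both drugs in KARPAS422, and by 1.97 with EPZ-6438 and 1.99 with both drugs in SuDHL10. With VTP50469 alone its values were -0.32 ± 0.16 in KARPAS422 (adjusted p = 0.485) and 0.25 ± 0.18 in SuDHL10 (adjusted p = 0.849). In DB with MI-503, CDKN1B, which encodes p27, rose by 0.77 and CDKN2D by 0.27, and CDKN2C fell by 0.27. CDKN2B was called higher there too, but it had too few counts with DMSO for a fold to be given.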

How the data were processed

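RNA was sequenced after ribosomal RNA depletion in 32 libraries of DLBCL lines. Per the submitters' processing notes and the study's methods, the authors used CASAVA 1.7, HISAT2 2.1.0, featureCounts 1.6.1 and Picard 2.23.1 with hg38, and deposited raw read counts per gene in 2 tables of 16 libraries. Not given in these sources are the annotation, the strand setting and the handling of reads shared between genes. The tables were analysed separately. Within each comparison genes with low counts were removed (filterByExpr), counts were scaled by TMM and tested with edgeR 4.0.16 (quasi-likelihood, R 4.3.3), with Benjamini-Hochberg adjustment over all genes tested and a call at an adjusted p under 0.1. MI-503 was fitted per line, the combination experiment over the 4 groups of a line, and differences between responses over both lines. Levels are TMM-scaled CPM. DESeq2 1.42.0, other scalings, no filter, thinned counts, a replicate block and leaving out each library were alternatives. Code was tested on simulated data.

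Same-numbered libraries of the combination experiment deviated together (12 pairs of groups, correlation 0.114 to 0.824), so a fit that pairs them was run as an alternative. The counts, SEs and adjusted p-values given for that experiment come from the fit without pairing, unless the paired fit is named. In the MI-503 experiment the correlations lay between -0.154 and 0.0742. These correlations are over all genes. Over the members alone they were 0.218 to 0.898 in SuDHL10, but in KARPAS422 they were -0.357 to -0.381 for 4 of the 6 pairs and 0.213 and 0.863 for the others. No 2 replicates agreed within sampling noise (chi-square per degree of freedom 1.76 to 50.3). Named members are CCNB1, CDC20, TOP2A, MKI67 and FOXM1, up to 3 called members per role group with the largest change and no overlap, and called members that went against the majority; others were named after their values were seen. The members and lists were chosen with earlier results of these data known.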

Additional observations from a re-analysis of the deposited data

Results flagged for a closer look

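The responses to MI-503 differed between lines for many members, by the test of the difference itself (edgeR quasi-likelihood). In KARPAS422 minus Farage 1 member was higher and 31 lower, beside 9.52% and 14.7% of all genes. The differences were -0.63 for GTSE1, -0.24 for CCNB1, -0.21 for TOP2A, -0.31 for MKI67 and -0.30 for FOXM1. In KARPAS422 minus DB 41 were higher and 0 lower, beside 27.2% and 19.7% of all genes. Here they were 0.89 for MAD2L1, 0.32 for CCNB1, 0.49 for CDC20, 0.35 for TOP2A, 0.16 for MKI67 and 0.30 for FOXM1. In Farage minus SUDHL5 21 were higher and 5 lower, beside 22.5% and 15.9% of all genes. HMMR differed by 1.46, CCNB1 by 0.27 and CDC20 by -0.39. With 2 libraries a group, single samples could not be tested as outliers.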

How the results depend on the processing

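The counts of members lower with MI-503 in KARPAS422 (23 to 29 on leaving out 1 library), DB (45 to 47) and SUDHL5 (20 to 22) stayed within 1.5 times the reported count under each alternative run. Library totals alone gave 22 members higher in Farage with MI-503, 2 lower in KARPAS422 with VTP50469, 19 lower in KARPAS422 than Farage at baseline, and 0 lower in SuDHL10 with EPZ-6438, with both drugs, and with both drugs against VTP50469. In the same setting CCNB1 (0.11) and CDCA8 (0.0697) turned from lower to higher in KARPAS422 than Farage, where the median of all genes was 0.23. With no filter SuDHL10 gave 2 lower with EPZ-6438, 7 with both drugs and 16 against VTP50469, and KARPAS422 minus Farage gave 18, or 17 with thinned counts. DESeq2 gave 6 with EPZ-6438 and 1 with VTP50469 in KARPAS422, and 4 for both drugs against VTP50469 in SuDHL10. Fitting the 2 compared groups alone gave 5 with EPZ-6438 and 13 for both drugs against EPZ-6438 in KARPAS422, and 0, 5 and 21 in SuDHL10 with EPZ-6438, with both drugs and against VTP50469. The replicate block gave 1 lower with VTP50469 in KARPAS422, and 10 with EPZ-6438, 11 with both drugs, 4 against EPZ-6438 and 21 against VTP50469 in SuDHL10. In the MI-503 experiment, where the numbers are not taken to pair libraries, the block gave 29, 46 and 22 lower in KARPAS422, DB and SUDHL5 and 16 higher in Farage. The cause of these shifts was not tested.

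Leaving out 1 library at a time gave 1 to 16 members higher with MI-503 in Farage and 12 to 37 lower in KARPAS422 minus Farage. In KARPAS422 it gave 0 to 7 lower with EPZ-6438, 0 to 4 with VTP50469, 21 to 47 with both drugs, 0 to 45 against EPZ-6438 and 0 to 47 against VTP50469. In SuDHL10 it gave 0 to 6 with EPZ-6438, 0 to 10 with both drugs, 0 to 7 against EPZ-6438 and 0 to 17 against VTP50469. Where a group was left with 1 library, that library was assumed to vary like the other groups.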
